A study of Rattus norvegicus with 24 samples.

Results

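The genes described here are 5 markers of D1 medium spiny neurons, Drd1, Tac1, Sfxn1, Eya1 and Slc35d3, measured in the striatum of rats with a history of methamphetamine (METH) self-administration and footshock punishment. They were found by gene symbol in the annotation of the array, where each of the 5 was carried by 1 of the 68842 transcript clusters. A transcript cluster is the set of probes that reads 1 gene on the Affymetrix rat transcriptome array, and its value is a log2 signal. No measured value was used to choose the genes, although earlier results of these data were known when they were chosen.

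All 24 arrays came from male Sprague-Dawley rats that went through self-administration sessions, and each array was 1 labelled sample. Shock-resistant rats (SR, n = 6) kept pressing for METH when part of the reinforced presses brought a footshock. Shock-sensitive rats (SS, n = 6) took METH in the same way but suppressed their intake under the shocks. Yoked rats had saline in place of METH and received non-contingent shocks and saline infusions whenever a METH rat was shocked, in number matched to the SR rats (YSR, n = 3) or to the SS rats (YSS, n = 3). Control rats (CT, n = 6) had saline and no shock. SR and SS rats were separated afterwards by their behaviour and not assigned at random, and all tissue was taken after withdrawal, a day after the second cue test. The labels do not say which yoked rat belonged to which METH rat.

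Medium spiny neurons make up most neurons of the striatum and fall into a direct and an indirect output pathway. Those of the direct pathway carry the D1 dopamine receptor, project to the output nuclei of the basal ganglia and release substance P and dynorphin. The D1 receptor acts through the G protein Golf and adenylyl cyclase to raise cyclic AMP, which activates protein kinase A. Neurons of the indirect pathway carry the D2 receptor, which lowers cyclic AMP, and release enkephalin. Drd1 encodes the D1 receptor, and Tac1 encodes the precursor of substance P and neurokinin A. Sfxn1 encodes a sideroflexin, a mitochondrial carrier that transports serine. Eya1 encodes a transcriptional coactivator and phosphatase, and Slc35d3 belongs to the family of nucleotide sugar transporters.

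The sequences before the gene models of Drd1, Tac1 and Slc35d3 are shown because the signals of these 3 genes varied together between rats. That of Sfxn1 is shown because the gene lies beside Drd1 and its signal did not vary with that of Drd1. Each is the 250 bases before the start of the RefSeq gene model in the GRCr8 assembly, read 5′ to 3′ on the strand of the gene, and 4 of the 5 genes had an entry (all but Eya1). Capitals mark TGACG on either strand (CGTCA when read on the other), the core of the sequence bound by cyclic AMP response element binding protein.
Drd1, chr17:10546354-10546603, plus strand: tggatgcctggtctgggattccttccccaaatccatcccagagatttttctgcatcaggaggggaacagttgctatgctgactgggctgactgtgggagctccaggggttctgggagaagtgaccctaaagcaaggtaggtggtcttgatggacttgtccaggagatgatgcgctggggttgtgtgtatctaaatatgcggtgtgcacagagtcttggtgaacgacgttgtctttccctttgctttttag
Tac1, chr4:36645333-36645582, plus strand: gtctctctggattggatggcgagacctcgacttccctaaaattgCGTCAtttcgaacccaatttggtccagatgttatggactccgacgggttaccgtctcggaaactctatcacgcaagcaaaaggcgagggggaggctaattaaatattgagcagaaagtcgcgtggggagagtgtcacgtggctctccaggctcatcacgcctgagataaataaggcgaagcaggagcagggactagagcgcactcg
Slc35d3, chr1:16392781-16393030, minus strand: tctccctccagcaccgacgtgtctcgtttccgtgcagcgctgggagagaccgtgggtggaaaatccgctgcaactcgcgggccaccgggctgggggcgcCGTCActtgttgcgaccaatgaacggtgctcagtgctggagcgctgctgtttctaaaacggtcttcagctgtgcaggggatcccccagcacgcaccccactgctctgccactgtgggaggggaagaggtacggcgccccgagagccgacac
Sfxn1, chr17:10527564-10527813, minus strand: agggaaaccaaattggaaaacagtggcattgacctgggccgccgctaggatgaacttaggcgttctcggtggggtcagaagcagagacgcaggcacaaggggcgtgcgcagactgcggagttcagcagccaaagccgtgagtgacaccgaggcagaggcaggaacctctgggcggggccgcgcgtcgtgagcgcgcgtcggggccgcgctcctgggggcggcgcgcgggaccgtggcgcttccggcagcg

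TGACG occurred once in the Tac1 window, starting 206 bases before the gene model, and once in the Slc35d3 window, 151 bases before it. It occurred 0 times in the windows of Drd1 and Sfxn1. Of 33469 windows of this length in the RefSeq table, 18.2% held it. The full palindrome TGACGTCA, held by 1.6% of all windows, the AP-1 sequence TGANTCA (6.3%) and the TATA sequence TATAAA (12.9%) were in none of the 4 windows, searched on both strands. GGGCGG, a sequence bound by Sp1 that 30.5% of all windows held, occurred 2 times in the Sfxn1 window and in none of the other 3. The windows of Sfxn1 and Slc35d3 were the richer in G and C, with 68.0% and 64.8%, against 52.4% for Tac1, 51.2% for Drd1 and a median of 51.2% over all windows. They also held 29 and 21 CG pairs, against 17 for Tac1, 4 for Drd1 and a median of 5. These matches describe letters in a window and are not evidence of binding, and whether transcription in these rats began at the gene models' starts was not tested. A window, that of Drd1 included, may therefore lie within transcribed sequence and not before it.

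In the annotation deposited with the arrays, whose genome build is not given in the sources used here, Drd1 lay on the plus strand of chromosome 17 from 11099802 to 11104352 and Sfxn1 on the minus strand from 11046087 to 11082073. The pair were transcribed away from each other, with 17728 bases between them. Tac1 lay on the plus strand of chromosome 4 from 33638840 to 33646821, Eya1 on the plus strand of chromosome 5 from 4275863 to 4515113, and Slc35d3 on the minus strand of chromosome 1 from 15298524 to 15301998. Each cluster was annotated as coding, with 89 probes for Drd1, 60 for Tac1, 158 for Sfxn1, 294 for Eya1 and 30 for Slc35d3. How much of each gene these probes cover was not examined.

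The study counted a gene as expressed when its mean in CT rats lay above that of bioB, a bacterial RNA added to every sample, and 9755 clusters (14.2%) met that rule. The mean of bioB in CT rats was 9.27 on the log2 scale, and it ranged between 9.01 and 9.73 over the arrays. Drd1, Tac1 and Sfxn1 lay above bioB in all 24 arrays. Slc35d3 met the rule narrowly, with 6 of 24 arrays above their own bioB. Eya1 did not meet it and lay below bioB in all 24 arrays, although its mean of 7.92 was above the median signal of every array. As a check of the labelled tissue, the indirect pathway genes Drd2, Adora2a, Penk and Gpr52 also met the rule, while Gpr6 and Sp9 did not. Which part of the striatum was sampled was not tested. The median signal of an array ranged between 5.11 and 5.32. Of 12 choroid plexus markers, only 1 met the rule, but the choroid plexus gene Kl lay above bioB in 9 of 24 arrays, namely 2 of 6 SR, 3 of 6 SS, 2 of 3 YSR, 1 of 3 YSS and 1 of 6 CT arrays. In tissue of mixed cells, fewer D1 neurons and less RNA per D1 neuron cannot be told apart.

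The D1 receptor gene spread widely within every group. Drd1 had a lowest log2 signal of 11.89, a median of 12.87 and a highest of 13.71 in SR rats. In SS rats these values were 12.24, 13.06 and 14.02. The YSR rats had 11.88, 12.87 and 13.74, and the YSS rats had 12.12, 12.91 and 13.05. In CT rats the lowest was 12.32, the median 13.32 and the highest 13.94. The group means were 12.85 ± 0.78 in SR, 13.07 ± 0.71 in SS, 12.83 ± 0.93 in YSR, 12.70 ± 0.50 in YSS and 13.23 ± 0.61 in CT rats (SD). All 5 groups overlapped, and all 4 groups with METH or shocks had means below CT by less than 1 SD of the CT rats. Between the lowest array (YSR replicate 1) and the highest (SS replicate 4), Drd1 differed 4.39-fold.

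Tac1, the substance P precursor, spread further still. Its lowest, median and highest log2 signals were 11.17, 12.58 and 13.31 in SR rats and 11.51, 12.93 and 14.42 in SS rats. The YSR rats had 11.11, 11.37 and 13.31, the YSS rats 11.14, 12.90 and 13.14, and the CT rats a lowest of 11.34, a median of 12.99 and a highest of 13.39. Means were 12.41 ± 0.98 in SR, 12.98 ± 1.04 in SS, 11.93 ± 1.20 in YSR, 12.39 ± 1.09 in YSS and 12.76 ± 0.76 in CT rats. Again every group held both high and low rats, and in YSR rats 2 of 3 were low. The same arrays as for Drd1 were lowest and highest, 9.90-fold apart.

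Sfxn1, the serine carrier, was the steadiest of the 5. It lay between 10.57 and 11.24 in SR rats (median 10.72), between 10.46 and 10.93 in SS rats (median 10.66) and between 10.35 and 10.75 in CT rats (median 10.55). The YSR rats had 10.68, 10.27 and 10.53, and the YSS rats 10.70, 10.60 and 10.70. Means were 10.83 ± 0.29 in SR, 10.68 ± 0.16 in SS, 10.49 ± 0.21 in YSR, 10.67 ± 0.06 in YSS and 10.56 ± 0.16 in CT rats. The highest 3 SR arrays lay above all CT arrays, and the other 3 overlapped them. The whole range over 24 arrays was 1.97-fold.

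Eya1, below bioB throughout, lay between 7.08 and 8.39 in SR rats (median 7.96), between 7.71 and 7.93 in SS rats (median 7.83) and between 7.52 and 8.74 in CT rats (median 8.16). The YSR rats had 7.76, 8.35 and 8.23, and the YSS rats 7.92, 7.76 and 7.34. Means were 7.78 ± 0.55 in SR, 7.82 ± 0.08 in SS, 8.11 ± 0.32 in YSR, 7.67 ± 0.30 in YSS and 8.18 ± 0.51 in CT rats. The 6 SS arrays sat close together inside the range of the CT arrays.

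Slc35d3, the nucleotide sugar transporter relative, lay between 8.41 and 10.05 in SR rats (median 8.97), between 8.30 and 9.90 in SS rats (median 8.94) and between 8.45 and 9.86 in CT rats (median 9.41). The YSR rats had 8.67, 9.08 and 9.44, and the YSS rats 9.24, 8.72 and 8.78. Means were 9.08 ± 0.59 in SR, 9.0 ± 0.62 in SS, 9.06 ± 0.39 in YSR, 8.92 ± 0.29 in YSS and 9.30 ± 0.55 in CT rats. The groups overlapped over nearly their whole ranges.

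**Figure D1:**
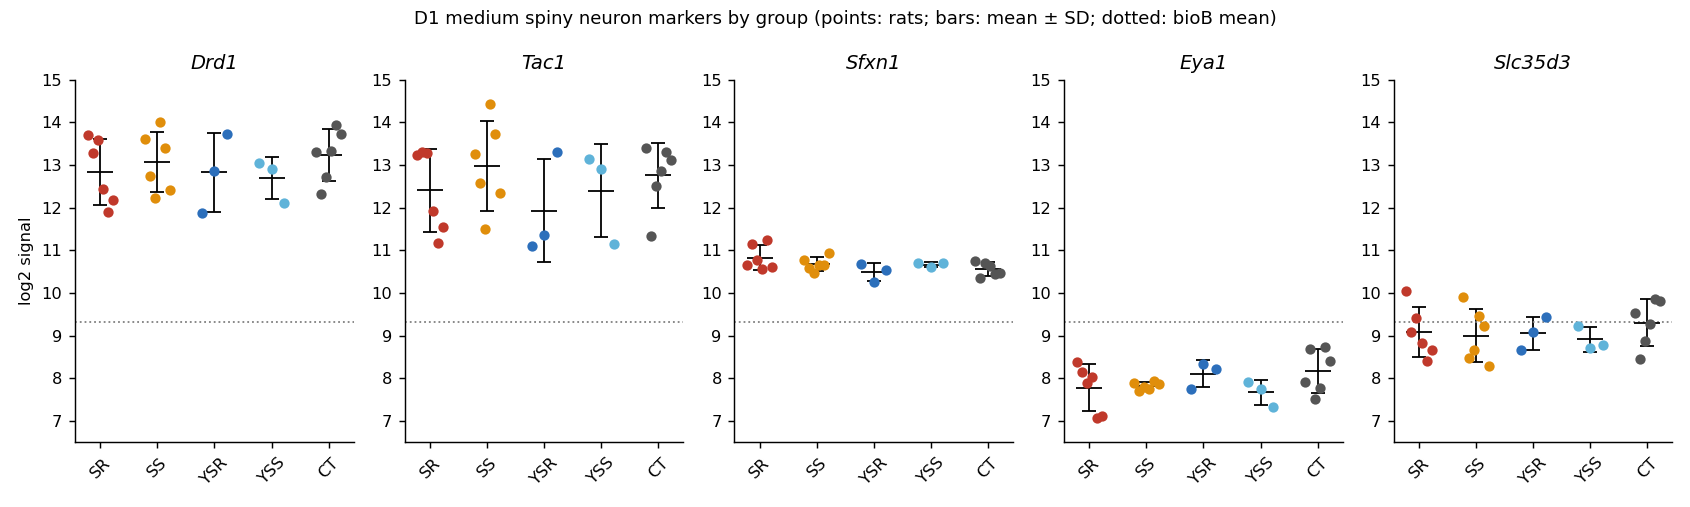
Log2 signal (y axis) of the 5 D1 markers in each rat (points) by group (x axis), with the group mean and SD as bars and the mean of bioB over the arrays as a dotted line. All groups overlap for all 5 genes, Drd1 and Tac1 spread most, and Eya1 lies below bioB in all 24 arrays.

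In order of the means, CT rats were highest for Drd1, Eya1 and Slc35d3, SS rats for Tac1 and SR rats for Sfxn1. The ranges of neighbouring groups in each of these orders overlapped. The differences among the 5 groups held 7.9% of the variance of Drd1 over the 24 arrays, 12.7% of that of Tac1, 30.2% for Sfxn1, 20.9% for Eya1 and 6.7% for Slc35d3, beside a median of 16.0% over the expressed clusters. Most of the variance of Drd1, Tac1 and Slc35d3 thus lay between rats of the same group. The SD within groups was 0.98 for Tac1, larger than that of 99.5% of expressed clusters, 0.71 for Drd1 (larger than 97.4%) and 0.55 for Slc35d3 (larger than 94.1%). It was 0.41 for Eya1 and 0.20 for Sfxn1, close to the median of 0.21.

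Across 8 comparisons of the groups, the question was whether METH taking, its suppression under punishment or shocks alone went with a different level of the D1 markers. In limma's fit of all 5 groups over 68842 clusters, 0 of the 5 genes passed a Benjamini-Hochberg adjusted p of 0.05 in any comparison or in the F test over the groups, and the smallest adjusted p of any was 0.75. The background was the same, with 0% of all clusters passing in each of the 8 comparisons and in the F test. At an unadjusted p under 0.05, 2 of the 40 gene and comparison pairs passed, both for Sfxn1. Of all 68842 clusters, between 2453 (SR against SS) and 4410 (SR against YSR) did so in a comparison, with 3727 for SR against CT. A count of 2 in 40 is close to this background. The study's own criterion, 1.7-fold with an unadjusted p under 0.05, was met by 0 of 5 genes in all 8 comparisons. Over all clusters it was met by 0.106% for SR against CT, 0.0305% for SS against CT, 0.0639% for SR against SS, 0.142% for YSR against CT, 0.359% for YSS against CT, 0.601% for YSR against YSS, 0.439% for SR against YSR and 0.135% for SS against YSS, and 0 of 5 genes is no different from this background. Groups overlapped in all 40 pairs, and 0 of 40 two-sided exact permutation tests gave a p under 0.05. With 3 rats against 3, the smallest exact p possible is 0.1.

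For the METH rats, Drd1 differed from CT by -0.38 in SR rats (95% interval -1.16 to 0.40) and by -0.16 in SS rats (-0.94 to 0.62) on the log2 scale. Tac1 differed by -0.35 in SR (-1.42 to 0.73) and by 0.22 in SS rats (-0.86 to 1.30). Eya1 differed by -0.40 in SR (-0.85 to 0.06) and by -0.35 in SS rats (-0.81 to 0.11), and Slc35d3 by -0.22 (-0.82 to 0.38) and -0.30 (-0.90 to 0.31). These intervals take in both no difference and, for all 4 genes in SR rats, a decrease of more than 1.7-fold. Between SR and SS rats, which differed in how they answered punishment, the largest difference was that of Tac1, -0.57 (-1.65 to 0.51).

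Sfxn1 was the only one of the 5 with an interval that left out 0. SR rats had a Sfxn1 signal 0.28 above that of CT rats (SE 0.11, 95% interval 0.04 to 0.51, limma p = 0.0224 unadjusted, adjusted p = 0.86, exact permutation p = 0.0649). They lay 0.34 above YSR rats (SE 0.14, interval 0.05 to 0.63, limma p = 0.0224 unadjusted, adjusted p = 0.75, exact permutation p = 0.131). Both failed the adjustment, and both comparisons use the same SR rats. The difference of Sfxn1 was 0.12 in SS (-0.11 to 0.36), -0.06 in YSR (-0.35 to 0.23) and 0.11 in YSS rats (-0.18 to 0.40) against CT. Without SR replicate 5, the highest array, SR lay above CT by 0.20. Markers of striatal interneurons moved with Sfxn1. Their mean log2 signal over 8 of 8 genes, 2 of them expressed by the rule, ranged between 8.43 and 9.64 in SR, 8.52 and 8.94 in SS, 8.05 and 8.84 in YSR, 8.39 and 8.94 in YSS, and 8.04 and 9.41 in CT rats. Their part in the difference of Sfxn1 was not tested.

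For shocks alone, the widest difference was that of Tac1 in YSR rats, -0.83 against CT (-2.15 to 0.49). Tac1 differed by -0.36 in YSS rats (-1.68 to 0.96). Drd1 differed by -0.40 in YSR (-1.35 to 0.56) and -0.53 in YSS rats (-1.49 to 0.43), Eya1 by -0.06 (-0.62 to 0.50) and -0.50 (-1.06 to 0.06), and Slc35d3 by -0.24 (-0.98 to 0.50) and -0.39 (-1.12 to 0.35). Between YSR and YSS rats, Tac1 differed by -0.46 (-1.99 to 1.06) and Eya1 by 0.44 (-0.21 to 1.09). Set against rats with yoked shocks, Tac1 was higher by 0.48 in SR than in YSR (-0.84 to 1.80) and by 0.58 in SS than in YSS rats (-0.74 to 1.90). Drd1 was 0.02 higher in SR than in YSR (-0.94 to 0.97) and 0.37 higher in SS than in YSS rats (-0.58 to 1.33). None of these passed a test, and with 3 yoked rats a group a difference of 1.7-fold lay inside every such interval of Drd1 and Tac1. For none of the 5 genes was a difference detected between the METH against yoked contrasts of the SR and SS arms (limma interaction term, adjusted p of 0.96 or more).

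**Figure D2:**
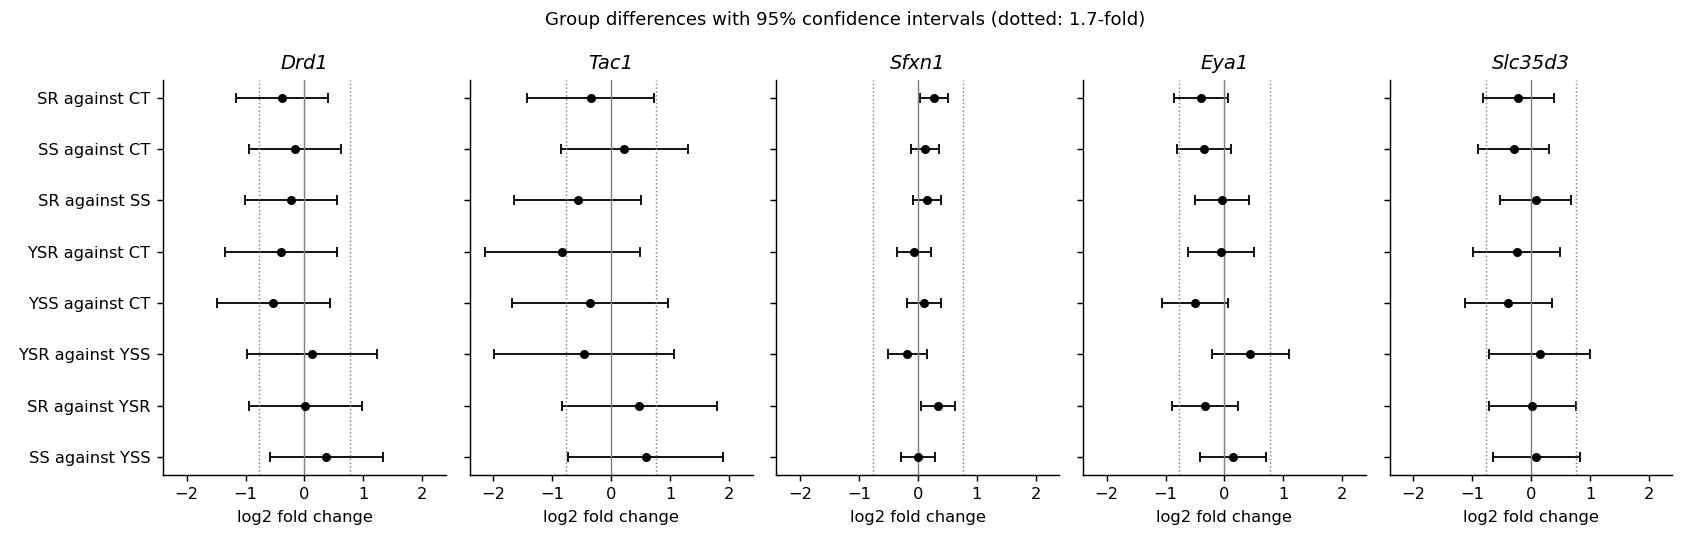
Log2 fold change (x axis) of each D1 marker in the 8 comparisons (y axis, first group over second) with 95% confidence intervals from limma as bars and 1.7-fold as dotted lines. Only the intervals of Sfxn1 for SR against CT (0.04 to 0.51) and SR against YSR (0.05 to 0.63) leave out 0, and those of Tac1 are the widest.

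Several of these directions turned with the arrays used. Without the 9 arrays whose Kl signal lay above bioB, Drd1 was 0.55 higher in SS and 0.61 higher in YSR rats than in CT rats, and Tac1 was 0.63 higher in YSR and 0.34 higher in YSS rats than in CT rats. This left 1 YSR and 2 YSS arrays, and the lone YSR array was taken to vary like the other groups. Tac1 was then 1.13 higher in SS than in CT rats, and still did not pass the test (limma, adjusted p = 0.98).

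What stood out among the 5 genes was that 3 of them varied together from rat to rat. Over the 24 arrays, Drd1 and Tac1 had a Pearson r of 0.91 and a Spearman rho of 0.88 (permutation p = 1.0e-05, the smallest that 100000 resamples can give, adjusted p over 10 pairs = 5.0e-05 for both). Drd1 and Slc35d3 had r = 0.88 and rho = 0.87 (the same p for both). Tac1 and Slc35d3 had r = 0.70 (permutation p = 0.0002, adjusted 0.000667) and rho = 0.74 (adjusted 0.000233). Without the 2 arrays farthest from the median of the first gene, r was 0.88, 0.87 and 0.69 for these 3 pairs. The relations were also seen within groups. For Drd1 and Tac1, r was 0.98 within SR, 0.95 within SS and 0.88 within CT rats, and for Drd1 and Slc35d3 it was 0.92, 0.86 and 0.98. For Tac1 and Slc35d3 the within-group r was 0.84 in SR, 0.69 in SS and 0.93 in CT rats, while the yoked groups had too few rats. Of the 6 lowest arrays for Drd1, 5 were also among the 6 lowest for Tac1 and 4 among the lowest for both Tac1 and Slc35d3, and these 4 came from an SR, an SS, a YSR and a CT rat. At the upper end the overlap was smaller, with 3 of the 6 highest arrays shared by Drd1 and Tac1, 5 by Drd1 and Slc35d3 and 2 by all 3 genes.

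Eya1 and Sfxn1 stood apart. Eya1 followed Drd1 (r = 0.53, permutation p = 0.00768, adjusted 0.0192, rho = 0.56) and Slc35d3 (r = 0.48, adjusted 0.0279, rho = 0.51) only in part. Within SR rats its r with Drd1 was 0.84, but it was 0.15 within SS and 0.20 within CT rats, and after those 9 arrays were left out the r with Drd1 was 0.34 and that with Slc35d3 0.29, neither past the test. With Tac1 its r of 0.31 did not pass (adjusted p = 0.203). Sfxn1 had an r of -0.15 with Drd1 (adjusted p = 0.546), 0.08 with Tac1 (adjusted 0.701) and -0.17 with Slc35d3 (adjusted 0.546). It ran against Eya1 (r = -0.51, adjusted 0.0202), although Spearman's rho of -0.44 did not pass (adjusted 0.052). Within groups r was -0.25 in SR, 0.44 in SS and -0.91 in CT rats. Without SR replicate 5, which had the highest Sfxn1 and the lowest Eya1 signal, r was -0.37 and no longer passed. Drd1 and its neighbour Sfxn1 on chromosome 17 thus had no detectable relation between rats.

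**Figure D3:**
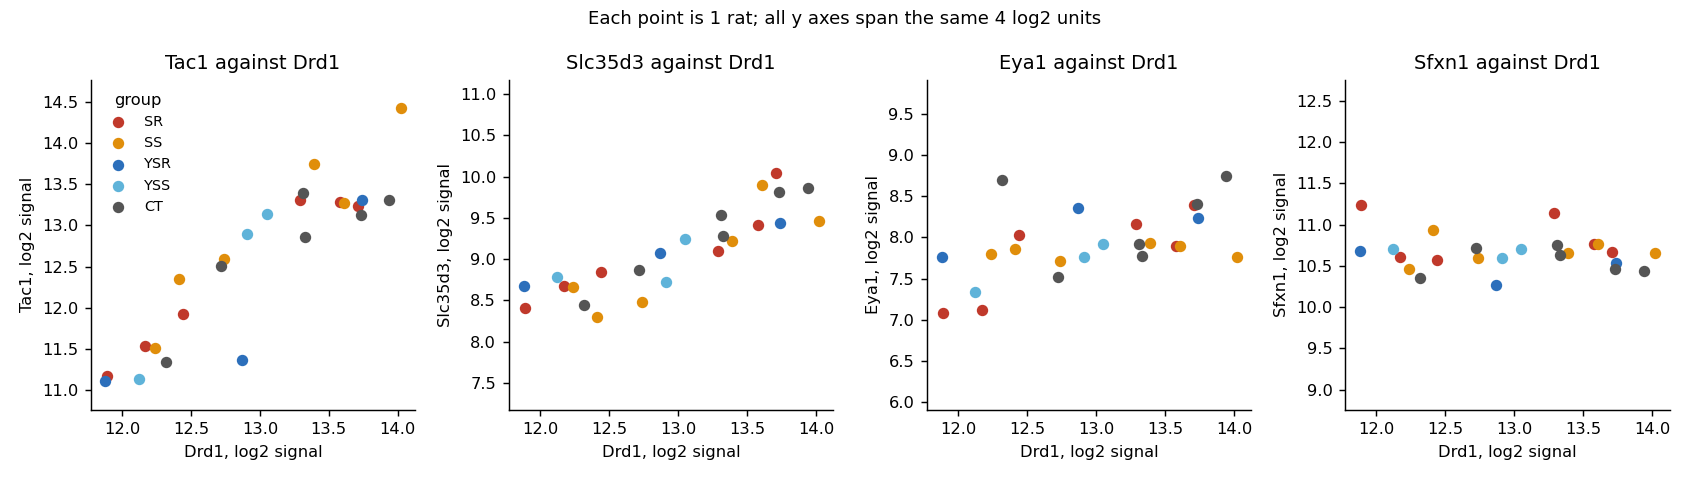
Log2 signal of Tac1, Slc35d3, Eya1 and Sfxn1 (y axes, all of the same span) against that of Drd1 (x axis), 1 point for each rat, coloured by group. Tac1 (r = 0.91) and Slc35d3 (r = 0.88) climb with Drd1 over the 24 arrays, Eya1 does so loosely (r = 0.53) and Sfxn1 stays flat (r = -0.15).

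Candidates were 4110 other coding clusters with 1 gene symbol and a mean over all 24 arrays, not CT rats alone, above that of bioB. The count was 4111 for Eya1 and Slc35d3, which lay below that mean. Among the candidates, the genes most like each marker over the 24 arrays were sought. For Drd1 they were Foxp1, a transcription factor of medium spiny neurons (r = 0.980), Pde10a, a phosphodiesterase abundant in these neurons (r = 0.975), and the calcium-dependent phosphodiesterase Pde1b (r = 0.972). All 3 were nearer to Drd1 than Tac1 was, and 1.51% of the candidates had a higher r with Drd1 than Tac1 did. For Tac1 they were the axon guidance receptor Robo2 (0.967), the actin regulator Cap1 (0.964) and the potassium channel Kcnk2 (0.960). For Slc35d3 they were Plppr1 (0.914), Arl15 (0.906) and the diacylglycerol kinase Dgkb (0.879), and 0.07% of candidates had a higher r with it than Drd1 had, while 2.51% had a higher r with Drd1 than Slc35d3 had. For Tac1 and Slc35d3 these shares were 9.32% counted from Tac1 and 4.77% counted from Slc35d3, and 1.41% had a higher r with Tac1 than Drd1 had. Sfxn1 was most like the cohesin regulator Pds5b (0.936), the protein kinase A inhibitor Pkia (0.887) and Cul2 (0.886), and Eya1 most like the cadherin Cdh11 (0.830), Pou2f1 (0.777) and the cyclin Ccnd2 (0.753). These r values describe genes picked as the highest of many. Of the candidates, 15.4% had an r above 0.5 with Drd1 and 14.5% one below -0.5, so that large correlations were common on these arrays.

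Of 6 genes of the indirect pathway, 5 moved with Drd1. The D2 receptor gene Drd2 had r = 0.93 with Drd1, the adenosine receptor gene Adora2a 0.90, the orphan receptor genes Gpr6 and Gpr52 0.94 and 0.91, and the enkephalin precursor gene Penk 0.72. The transcription factor gene Sp9 followed it less closely (0.42), and it was left out of the mean of indirect pathway genes. The 5 genes in that mean are the ones that moved with Drd1, so a steady difference from the D1 markers follows in part from this choice. Genes used by both pathways were also close to Drd1, with 0.96 for the transcription factor gene Bcl11b and for Ppp1r1b, which encodes the protein kinase A target DARPP-32. The mean log2 signal of the 5 D1 markers minus that of Drd2, Penk, Adora2a, Gpr6 and Gpr52 was -2.0 ± 0.09 in SR, -1.97 ± 0.20 in SS, -1.93 ± 0.10 in YSR, -1.99 ± 0.26 in YSS and -2.04 ± 0.12 in CT rats (SD). The size of this difference has no meaning of its own, since signals of different probes are not on 1 scale. It lay between -2.26 and -1.71 over the 24 arrays. The mean of the D1 markers itself lay between 9.96 and 11.26, and that of the indirect pathway genes between 11.73 and 13.42. The indirect pathway mean was 13.25 at the difference of -2.26 (SS replicate 5) and 11.73 at -1.71 (YSS replicate 3), but SR replicate 5 had -2.09 beside 12.05. Whether the difference varied with the level was not tested. Sfxn1, which did not follow Drd1, and Eya1, which did so in part, belong to the D1 mean. Drd1 minus Drd2 was -2.24 ± 0.32 in SR, -2.11 ± 0.16 in SS, -1.89 ± 0.25 in YSR, -2.13 ± 0.34 in YSS and -2.23 ± 0.20 in CT rats. The peptide genes held together less closely, with Tac1 minus Penk at -3.78 ± 0.76 in SR, -3.17 ± 0.69 in SS, -4.03 ± 0.97 in YSR, -3.61 ± 0.89 in YSS and -3.34 ± 0.40 in CT rats.

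**Figure D4:**
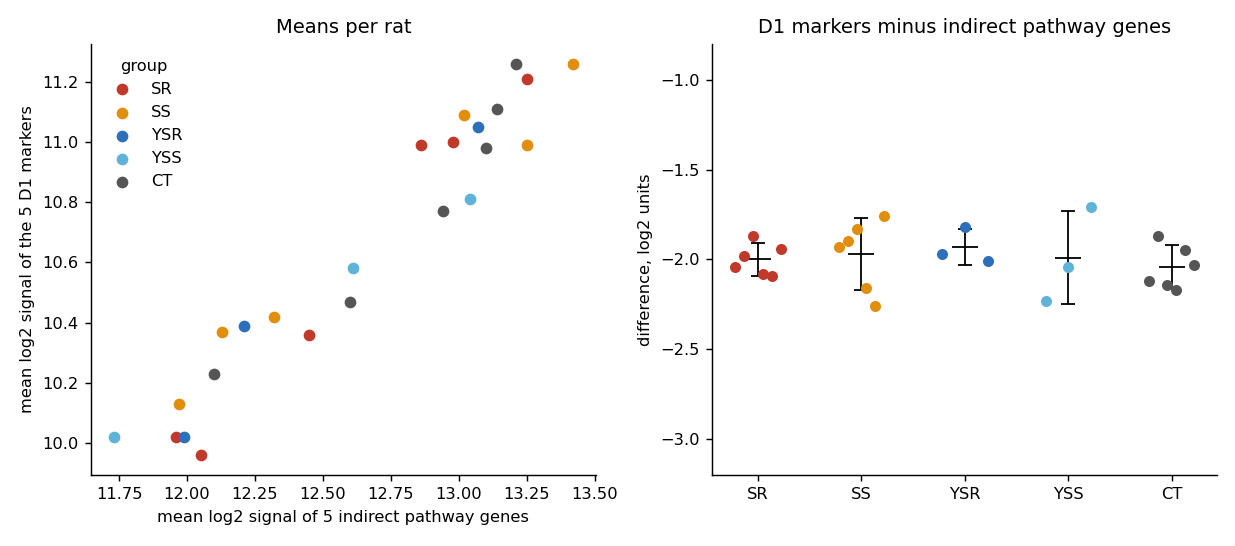
Left, mean log2 signal of the 5 D1 markers (y axis) against that of the 5 indirect pathway genes (x axis), 1 point for each rat. Right, the difference of these means in log2 units by group, with mean and SD as bars, which lies between -2.26 and -1.71 in all 24 arrays and overlaps in all groups.

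The signal transduction genes downstream of the D1 receptor fell into 2 kinds. Gnal, which encodes the Golf alpha subunit (r = 0.92 with Drd1), Gng7, a gamma subunit (0.95), Adcy5, the main adenylyl cyclase of the striatum (0.96), Prkar2b, a regulatory subunit of protein kinase A (0.91), and Rgs9, a regulator of G protein signalling (0.96), moved with Drd1. The catalytic subunit genes Prkaca (-0.39) and Prkacb (-0.07), the beta subunit gene Gnb1 (-0.32) and the kinase gene Mapk3 (-0.51) did not. Sfxn1 was the reverse, with r = 0.85 for Prkacb, 0.71 for Prkaca and 0.63 for Gnb1, against 0.12 for Gnal and -0.12 for Adcy5. None of the 14 genes of this list met the study's criterion or passed the adjusted test in any comparison. Their median log2 fold change was -0.14 for SR against CT, -0.08 for SS against CT, -0.27 for YSR against CT and -0.20 for YSS against CT, beside medians over all clusters of -0.04, -0.02, -0.02 and 0.01. The lowest of the list was Rgs9 in SR rats (-0.60 against CT) and Ppp1r1b in YSS rats (-0.76 against CT).

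Of 5 other direct pathway genes, only Pdyn, the precursor of dynorphin, met the criterion in a comparison. Its log2 signal had a lowest value of 10.77, a median of 10.99 and a highest of 11.25 in SR rats, against 10.40, 9.85 and 10.17 in YSR rats. The log2 fold change was 0.85 (SE 0.25, limma adjusted p = 0.75), in the comparison where 0.439% of all clusters met the criterion. In SR rats Pdyn lay 0.63 above CT rats, which ranged between 9.47 and 10.93, and did not meet the criterion there. Unlike Tac1, it did not follow the D1 receptor (r = 0.19 with Drd1, 0.31 with Tac1, 0.57 with Sfxn1). The muscarinic receptor gene Chrm4 (0.81) and the transcription factor genes Ebf1 (0.85) and Zfp521 (0.61) followed Drd1 more closely than Isl1 (0.28), though all 4 lay below the bioB rule.

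Among relatives of the 5 genes no difference passed the adjusted test. Several had an unadjusted limma p under 0.05, such as Drd3 for SR against SS and Tacr3 for SR against YSR. Over all 68842 clusters, 2453 did so for SR against SS and 4410 for SR against YSR. Whether the relatives exceeded this background was not tested. Drd3 averaged 5.08, while the array medians ranged between 5.11 and 5.32. None of the 4 other dopamine receptor genes met the criterion, and only Drd2 was expressed by the rule, averaging 15.09 ± 0.57 in SR, 15.18 ± 0.68 in SS, 14.72 ± 0.73 in YSR, 14.82 ± 0.82 in YSS and 15.46 ± 0.46 in CT rats. None of the 5 other tachykinin genes, 2 precursors and 3 receptors, was expressed by the rule or met the criterion. The highest of them was the neurokinin 3 receptor gene Tacr3, 0.75 higher in SR than in YSR rats, which moved with Sfxn1 (r = 0.75) and not with Tac1 (-0.18). Of 11 relatives of Sfxn1, Eya1 and Slc35d3, Sfxn5 alone was expressed by the rule, and it had r = 0.55 with Drd1 and -0.14 with Sfxn1. Their log2 fold changes lay between -0.29 (Slc35d2 in YSS against CT) and 0.35 (Slc35d1 in YSR against YSS).

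Markers of cortical neurons moved against 2 of the 5 D1 markers, Drd1 and Slc35d3. The mean log2 signal of 9 cortical pyramidal neuron genes had r = -0.61 with Drd1 (permutation p = 0.00166, adjusted over 40 relations = 0.0166, rho = -0.64, adjusted 0.0164) and r = -0.67 with Slc35d3 (permutation p = 0.00037, adjusted 0.00493, rho = -0.70, adjusted 0.0076). With Tac1 r was -0.43 and did not pass (adjusted 0.145), nor did r = -0.23 with Eya1 (adjusted 0.501) and r = 0.27 with Sfxn1 (adjusted 0.442). After the group means were subtracted, r was -0.60 for Drd1 and -0.66 for Slc35d3, and without the 2 arrays farthest from the median it was -0.76 and -0.77. The list mean lay between 7.18 and 9.0 in SR, 7.23 and 9.41 in SS, 7.60 and 9.53 in YSR, 8.89 and 9.19 in YSS, and 6.67 and 8.90 in CT rats, with 2 of 9 genes expressed by the rule. Against CT rats, all 9 were higher in YSR and in YSS, 8 of 9 in SS and 7 of 9 in SR rats. Their median log2 fold change was 0.32 in SR, 0.49 in SS, 0.30 in YSR and 1.04 in YSS rats. Medians over all clusters were -0.04, -0.02, -0.02 and 0.01. Drd1 and Slc35d3 had means below CT in each of these groups, but Tac1 was 0.22 above CT in SS rats. The cortical glutamate transporter gene Slc17a7 averaged 11.64 ± 1.53 in SR, 11.51 ± 2.21 in SS, 11.64 ± 2.05 in YSR, 12.98 ± 0.35 in YSS and 10.62 ± 2.41 in CT rats. The part of these genes in the levels of the D1 markers was not tested.

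Choroid plexus markers fell into a low and a high set of arrays. Their mean over 12 genes lay between 5.17 and 9.06 in SR, 5.75 and 9.60 in SS, 5.95 and 10.44 in YSR, 5.43 and 7.78 in YSS, and 5.54 and 10.20 in CT rats. SR replicate 5 (7.19) and YSS replicate 3 (7.78) lay between most arrays of either set. Over the 24 arrays the mean had r = -0.47 with Tac1 (permutation p adjusted over 40 relations = 0.135, rho = -0.45, adjusted 0.136). It had r = -0.35 with Drd1, -0.21 with Slc35d3, -0.23 with Sfxn1 and -0.02 with Eya1, and none passed. Without the 2 arrays farthest from the median, r was -0.51 for Tac1, -0.52 for Drd1, -0.40 for Slc35d3, -0.01 for Sfxn1 and -0.24 for Eya1. YSR replicate 1, the array with the lowest Drd1 and Tac1, had 9.92 on the choroid plexus list and the highest cortical mean, 9.53. SS replicate 4, the array with the highest Drd1 and Tac1, had 5.94 and 7.23. CT replicate 6 had a high Drd1 of 13.73 beside a choroid plexus mean of 10.20 and the lowest cortical mean, 6.67. SR replicate 6 went the other way for cortex, with a low Drd1 of 12.17 and Tac1 of 11.54 beside a low cortical mean of 7.18. Its choroid plexus mean was 8.24. With the 9 arrays of high Kl left out, Drd1 and Tac1 still had r = 0.92 and Drd1 and Slc35d3 r = 0.90.

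Sfxn1 and Eya1 instead moved with the interneuron list, in opposite directions. Sfxn1 had r = 0.69 with it (permutation p = 0.00024, adjusted 0.0048, rho = 0.63, adjusted 0.0164) and Eya1 r = -0.75 (permutation p = 6.0e-05, adjusted 0.0024, rho = -0.57, adjusted 0.0319). Without the 2 arrays farthest from the median, r was 0.53 for Sfxn1 and -0.63 for Eya1. In that list the calretinin gene Calb2 met the criterion for SR against CT, SR against SS and SR against YSR. Over all clusters 0.106%, 0.0639% and 0.439% met it in these comparisons. Calb2 averaged 8.81 ± 1.82 in SR rats, below bioB, with single arrays between 6.8 and 11.5. Its means were 7.13 ± 0.46 in SS, 7.02 ± 0.83 in YSR, 7.56 ± 0.95 in YSS and 7.45 ± 0.97 in CT rats. The acetylcholine precursor transporter gene Slc5a7, also below bioB on average in SR rats, and the somatostatin gene Sst met the criterion for SR against YSR, with 0.97 and 0.90. None passed the adjusted test (limma, adjusted p of 0.75 or more). Sfxn1 was also lower by rank where oligodendrocyte genes were higher (rho = -0.58, adjusted 0.0319), but Pearson's r of -0.49 did not pass (adjusted 0.135).

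**Figure D5:**
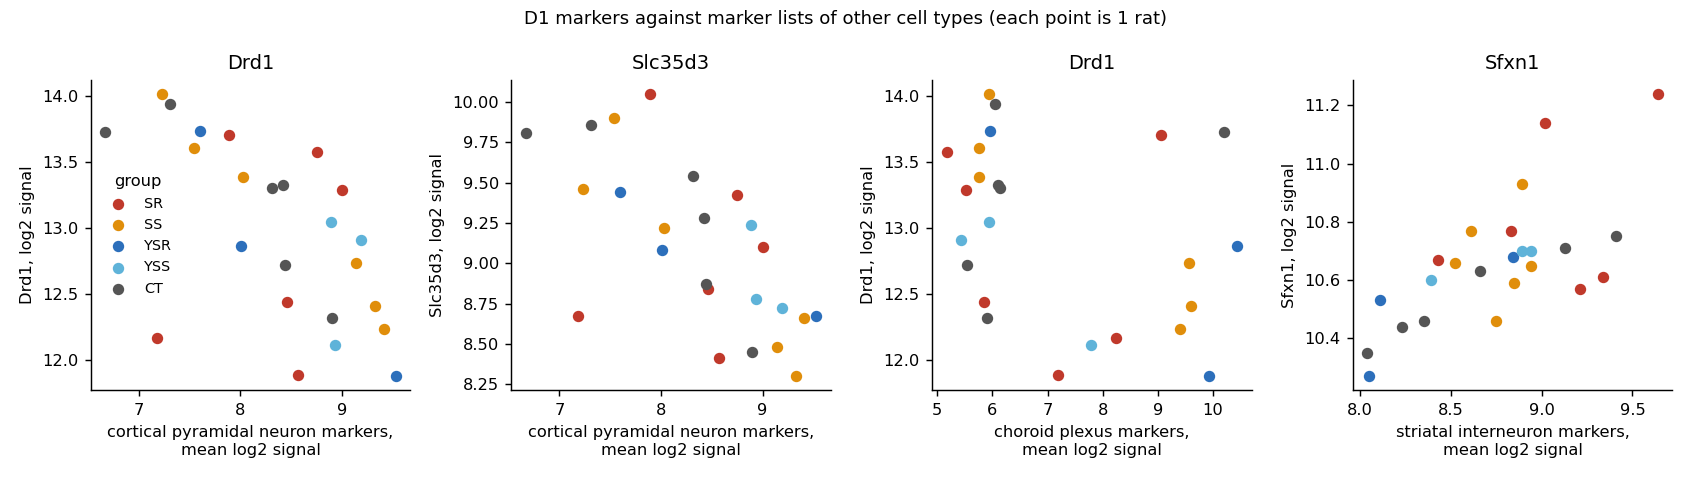
Log2 signal of D1 markers (y axes) against the mean log2 signal of marker lists of other cells (x axes), 1 point for each rat, coloured by group. Drd1 (r = -0.61) and Slc35d3 (r = -0.67) are lower where cortical pyramidal neuron markers are higher. Choroid plexus markers form a low and a high set with a few arrays between, and Sfxn1 climbs with the interneuron list (r = 0.69).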

How the data were processed

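Dorsal striatum RNA of 24 rats was hybridised to Affymetrix rat transcriptome arrays, and the labels gave 5 groups. The deposited values were log2 signals summarised by the authors with Affymetrix Expression Console; the algorithm, its settings and the genome build are not given in the sources used here, nor is a scan batch. Gene symbols and positions came from the authors' analysis table. Its fold change and p columns hold the study's own comparisons and were not used, and 0 columns of single samples were left unassigned. Of 70580 rows, 1738 controls were left out and the other 68842 clusters were tested without a filter.

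Groups were compared with limma 3.58.1 in R 4.3.3 (lmFit and eBayes, 5 group means, Benjamini-Hochberg over all clusters). Members were also tested with exact two-sided permutations of arrays, and correlations with 100000 permutations (Python 3.11.15, scipy 1.17.1). Both were tested on simulated data. The labels do not identify single animals, so p-values measure only the spread between these samples. The number of arrays limits the precision. A gene with several clusters was read from the one with the highest mean. The 5 members are named in every comparison, the 3 most similar genes by Pearson r for each, and list genes where they met the criterion or were extreme in their list. Members and lists were chosen with earlier results of these data known. Overlap with other genes and strand were not examined. Replicate numbers did not pair samples. Promoters came from RefSeq (GRCr8). Some items are not reported here.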

Additional observations from a re-analysis of the deposited data

How the results depend on the processing

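No member passed the adjusted test under any alternative that was run (only clusters above bioB, quantile normalization, median centring, a mean-variance trend with robust prior, no moderation, only the arrays of the groups compared, replicate block, arrays with Kl above bioB left out, each array left out), and the correlations of Drd1 with Tac1 and Slc35d3 and of Tac1 with Slc35d3 passed under all of those run on them that carry a test. The D1 minus indirect pathway difference moved by less than 1 SD between replicates. Taking the mean of all clusters gave no other value, since each member had 1. Replicate numbers were shared without pairing: same-numbered arrays of different groups had correlations between -0.69 and 0.64 (median -0.11), 6 of 24 arrays were closest to one of their own number, and the replicate block left 0 of 5 genes passing in each comparison, with Sfxn1 0.28 higher in SR than in CT rats.

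Some differences changed sign, small and large ones alike (the widest, Tac1 for YSR against CT, among them), and the cause was not tested. Without the arrays with Kl above bioB, Drd1 had log2 fold changes of 0.55 for SS against CT, 0.61 for YSR against CT and -0.93 for SR against YSR. Tac1 had 0.63 for YSR against CT, 0.34 for YSS against CT, 0.29 for YSR against YSS and -0.89 for SR against YSR. Eya1 had 0.10 for YSR against CT, and Slc35d3 had 0.33 for SS against CT, -0.59 for SR against SS, 0.24 for YSR against CT and -0.50 for SR against YSR. Tac1 and Sfxn1 then had r = -0.10. Quantile normalization gave Sfxn1 -0.01 for SS against YSS.

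With each array left out, Drd1 ranged between -0.35 and 0.0086 for SS against CT, -0.85 and 0.076 for YSR against CT, -0.32 and 0.61 for YSR against YSS, and -0.46 and 0.47 for SR against YSR. Tac1 ranged between -0.066 and 0.52 for SS against CT, -0.74 and 0.26 for YSS against CT, and -0.041 and 0.96 for SS against YSS. Sfxn1 ranged between -0.16 and 0.051 for YSR against CT and -0.042 and 0.052 for SS against YSS. Eya1 ranged between -0.17 and 0.10 for SR against SS, -0.19 and 0.12 for YSR against CT, and -0.016 and 0.28 for SS against YSS. Slc35d3 ranged between -0.12 and 0.26 for SR against SS, -0.043 and 0.34 for YSR against YSS, -0.18 and 0.21 for SR against YSR, and -0.090 and 0.25 for SS against YSS. The correlation of Sfxn1 ranged between -0.23 and 0.056 with Drd1 and -0.023 and 0.33 with Tac1. Eya1 lay below bioB and Slc35d3 near it, which limits what their differences can show.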
